A study of Mus musculus with 12 samples.

Results

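The genes described here are the cytochrome P450 genes of families 1 to 4 in mouse liver, chosen by symbol as every row of the Ribo-seq table named Cyp, a family digit from 1 to 4, a subfamily letter and a number. There were 75 such genes among 25033 rows. At least 1 read was found on 69 of them, and 40 had enough reads to be tested. The other 29 with reads fell below the filter on low values, and 6 had no read in any library (Cyp2c40, Cyp2c65, Cyp2t4, Cyp2w1, Cyp3a16 and Cyp3a44). Genes whose symbol carries a further letter after the number, such as Cyp3a41a, are not matched by this rule. The counts and sums by family and subfamily below leave them out.

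In Ribo-seq the short stretches of mRNA covered by ribosomes (footprints) are sequenced, and the level of a gene reflects both how much of its mRNA is present and how many ribosomes sit on it. The 6 libraries came from livers of male C57BL/6 mice aged 16 weeks, which had eaten a high-fat feed for 8 weeks, either alone (HFD1, HFD2 and HFD3) or with lycopene mixed in (LYC1, LYC2 and LYC3). Both groups received the high-fat feed, so lycopene is compared within that diet and not with standard feed. The labels speak of pooling before library construction, and the p-values measure the spread between these libraries, which may be technical. In whole liver, fewer cells of a type and fewer footprints per cell cannot be told apart.

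Cytochrome P450 enzymes are haem proteins of the endoplasmic reticulum that insert an oxygen atom into their substrates with electrons passed on by P450 oxidoreductase and cytochrome b5. Families 1 to 3 are known in liver for the oxidation of drugs, plant compounds, pollutants and steroids, and family 4 for the omega-hydroxylation of fatty acids and eicosanoids. Several are used as readouts of nuclear receptors: Cyp1a1 and Cyp1a2 for AhR, Cyp2b10 and Cyp3a11 for CAR and PXR, and Cyp4a10 and Cyp4a14 for PPARα. Many are transcribed mainly near the central vein, and in mice a number of Cyp2 and Cyp3 genes differ in level between males and females.

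The libraries held 834410 to 4405541 reads in HFD and 311050 to 412116 in LYC, with a median 6.91 times as large in HFD as in LYC. A single read on 1 kb of gene came to 0.227 to 1.20 RPKM in HFD and 2.43 to 3.21 RPKM in LYC, so low values in LYC rest on few reads. Small non-coding RNA genes took 2.82% to 4.39% of the reads in HFD and 8.66% to 13.2% in LYC, and dividing by trimmed mean of M-values (TMM) factors raised LYC against HFD by 0.29 on the log2 scale. All 4 hepatocyte markers in the table were tested and none was called. Their summed RPKM as deposited, most of it from Alb, was 39623 to 42159 in HFD and 26691 to 35730 in LYC. By limma 2 of the 4 were negative, at a median of 0.13 on the log2 scale. Alb was at -0.41 and overlapped between the groups after scaling. Apoa1 was higher in LYC without overlap (0.60, SE 0.30, limma adjusted p = 0.214). All 4 endothelial markers were tested and negative by limma, at a median of -0.32 on the log2 scale, and 0 were called. Their summed RPKM was 50.2 to 69.1 in HFD and 10.7 to 99.6 in LYC, and Pecam1 alone was lower without overlap (-1.01, SE 0.31, limma adjusted p = 0.0718, from 8 LYC reads). By edgeR Clec4g (0.65) and Stab2 (0.26) were positive, and Kdr (-0.09) and Pecam1 (-1.28) negative. Clec4g, Kdr and Stab2 had 2.60, 3.20 and 2.77 RPKM in LYC2, and 53.0, 25.4 and 18.8 RPKM in LYC3. The 4 cholangiocyte markers summed to 4.36 to 5.09 RPKM in HFD and 0.775 to 2.34 RPKM in LYC, and the 3 B and T cell markers to 3.20 to 4.31 and 0.612 to 2.77 RPKM, with no LYC read on Krt7, Krt19, Epcam, Cd79a and Cd3e. No cholangiocyte or B and T cell marker had enough reads to be tested. Of the Kupffer cell and stellate cell markers 3 each were tested and 0 called, with summed RPKM of 65.2 to 77.6 and 78.95 to 149 in HFD and 55.9 to 135 and 80.3 to 109 in LYC. The Kupffer cell marker Vsig4 had 9.21, 14.6 and 7.52 RPKM in HFD and 28.3, 44.8 and 6.77 RPKM in LYC, with overlap (log2 fold change 1.25, SE 0.59, limma adjusted p = 0.193, edgeR adjusted p = 0.0418). The part of these cell types in the results below was not tested.

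Levels spanned a wide range. Cyp2e1, the enzyme that oxidises ethanol and acetone, led in both groups with 2494, 2876 and 2109 RPKM in HFD1, HFD2 and HFD3 and 2580, 1629 and 2970 RPKM in LYC1, LYC2 and LYC3. The groups overlapped, LYC2 being the lowest of the 6, and the log2 fold change (LYC minus HFD) was 0.20 with a standard error (SE) of 0.33 (limma adjusted p = 0.722, Benjamini-Hochberg over the 5704 genes tested). By group means Cyp2e1 made up 33.9% of the summed RPKM of the 75 genes in HFD and 41.6% in LYC. By library its shares overlapped between the groups, LYC2 lying below HFD2. The 12 genes with the highest mean in HFD made up 77.7% of the summed group means in HFD and 79.6% in LYC. The order of the genes was much alike in both groups, with a Spearman's rho of 0.945 between the group means of the 69 genes with reads, whose means come from separate libraries and share the gene lengths.

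The summed RPKM of the 75 genes was 7648, 7711 and 6703 under HFD, compared with 5849, 4603 and 6792 under LYC. LYC3 lay inside the HFD range and LYC2 far below it. Without Cyp2e1 the sum was 5154, 4835 and 4595 in HFD but 3269, 2973 and 3821 in LYC, and no LYC library reached the HFD range. On the RPKM as deposited the LYC mean was 0.782 times the HFD mean, and after division by the TMM factors it was 0.965 times, so the summed level depended on the scaling. Without Cyp2e1 the scaled ratio was 0.845, and the scaled sums of the groups overlapped. By family, the ratio on the scaled values was 0.415 for Cyp1, 1.01 for Cyp2, 0.949 for Cyp3 and 0.702 for Cyp4. The scaled Cyp4 sum came to 522, 556 and 515 for the HFD libraries but 310, 325 and 483 for the LYC libraries, without overlap between the groups.

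**Figure D1:**
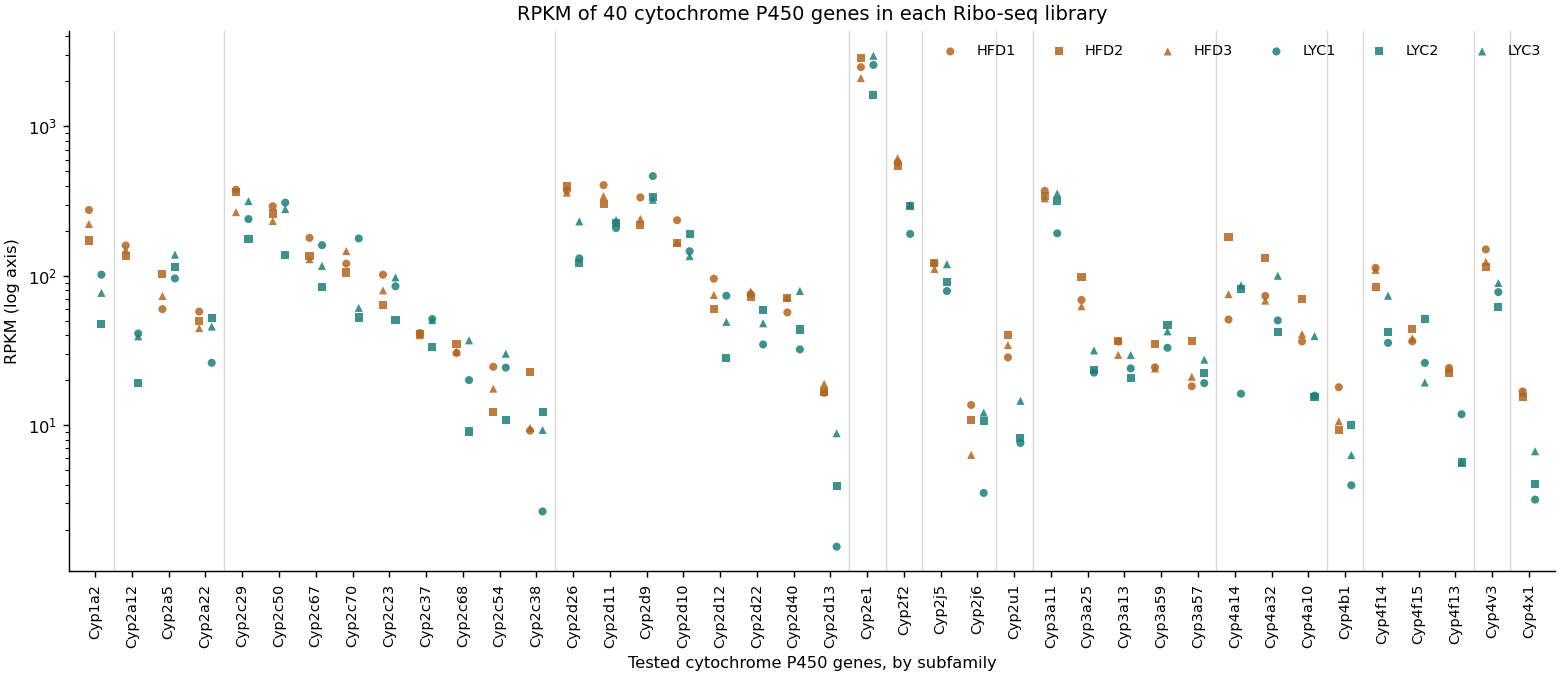
RPKM on a log axis of the 40 tested genes, ordered by subfamily (grey lines part subfamilies) and by mean HFD level within each, with 1 point per library, HFD in brown and LYC in green. Cyp2e1 stands above all others in both groups, and all LYC points lie below all HFD points in 14 genes, the 7 called genes and also Cyp2d11, Cyp2d22, Cyp2d26, Cyp2f2, Cyp3a13, Cyp4f14 and Cyp4v3. The values are as deposited, where 27.6% of all genes tested were lower in LYC without overlap. After division by the TMM factors 9 of the 40 genes were, beside 19.3% of all genes.

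Lycopene was compared with the high-fat feed alone for each gene with limma on log2(RPKM / TMM factor + 1), and genes were called where the log2 fold change passed 1 in either direction with an unadjusted p below 0.01. Of the 40 genes, 7 were called lower and 0 higher in LYC. The share called lower was 17.5%, against 6.5% of all 5704 genes tested, and 6.98% of all genes were called higher. An adjusted p below 0.05 was reached by 4 lower genes (5.26% of all genes) and 0 higher genes (6.5% of all genes). An unadjusted limma p below 0.05 was found for 10 lower genes (15.3% of all genes) and 3 higher genes (14.9% of all genes), and edgeR and DESeq2 likewise gave 3 higher genes such a p. By the same fold and p limits edgeR called 5 of the 40 lower and 0 higher, against 7.22% and 8.63% of all genes. DESeq2 also called 5 lower and 0 higher, against 6.96% and 9.05% of all genes. At an adjusted p below 0.05, edgeR and DESeq2 each found 7 lower and 2 higher, where edgeR placed 7.45% of all genes lower and 9.84% higher and DESeq2 7.91% and 11.5%. A negative log2 fold change was found for 30 of the 40 genes, or 75.0%, against 55% of all genes. Their median was -0.26, against -0.10 for all genes tested. The scaled values of the groups did not overlap in 9 genes lower in LYC and in 3 higher, beside 19.3% and 18.7% of all genes. As deposited, without the TMM factors, 14 were lower and 0 higher without overlap, beside 27.6% and 9.98% of all genes.

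The called genes lay in the subfamilies Cyp1a, Cyp2a, Cyp2d, Cyp2u, Cyp3a, Cyp4f and Cyp4x, each with a single call. Cyp2a12 and Cyp3a25 each have a close paralogue that was measured in the same libraries and behaved differently, so their sequences come first. A footprint is about 28 bases long, and 48.7% of the 28-base windows of the Cyp2a12 coding sequence also occur in Cyp2a22, a neighbour on chromosome 7. The 2 coding sequences, 1476 bases each, differ at 45 positions and are 97.0% identical, with a longest identical run of 206 bases. The stretch where they differ most shows what a read must cover to tell them apart. It spans the end of exon 8 and the start of exon 9, at coding positions 1277 to 1336, on GRCm38 chr7:27035432-27036503 (plus strand) for Cyp2a12 and chr7:26932494-26933499 (minus strand) for Cyp2a22, with the bases that differ in capitals:
Cyp2a12: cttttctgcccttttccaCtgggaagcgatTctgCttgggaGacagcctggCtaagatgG
Cyp2a22: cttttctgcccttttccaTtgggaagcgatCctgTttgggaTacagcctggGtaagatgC

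For Cyp3a25 and Cyp3a59, on chromosome 5, 52.4% of the windows are shared, and the coding sequences of 1509 bases differ at 38 positions (97.5% identity, longest identical run 162 bases). Their most different stretch lies across exons 4 and 5, at coding positions 290 to 349, on chr5:145994948-145998515 (minus strand) for Cyp3a25 and chr5:146090710-146094377 (plus strand) for Cyp3a59, again with differing bases in capitals:
Cyp3a25: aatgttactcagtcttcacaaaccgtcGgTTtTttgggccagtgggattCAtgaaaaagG
Cyp3a59: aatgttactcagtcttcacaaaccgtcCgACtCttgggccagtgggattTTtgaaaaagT

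How the authors' counting assigned reads that fit both copies is not given in the sources used here. Over the 74 genes with a coding sequence in the annotation, the median share of windows found in another gene was 21.2%, 22 genes shared at least 50%, and 10 shared none, among them Cyp2e1, Cyp2f2, Cyp2u1 and Cyp4x1.

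Cyp2a12 (chromosome 7, 27029081 to 27037375), a steroid hydroxylase, had 160, 135 and 150 RPKM in HFD and 41.1, 19.3 and 39.4 RPKM in LYC. The lowest HFD library was over all LYC libraries by a wide margin, and LYC2 was the lowest of the 6. Its reads numbered 1924 in HFD and 64 in LYC. The log2 fold change of -1.91 (SE 0.37, limma adjusted p = 0.0154) was the most negative of the 40 genes, and it was called with any 1 of the 6 libraries left out. Cyp2a22 had 57.7, 50.2 and 44.7 RPKM in HFD and 26.2, 52.0 and 45.8 RPKM in LYC, with overlapping groups and a log2 fold change of -0.06 (SE 0.28, limma adjusted p = 0.910). Within a library, Cyp2a12 was 2.77, 2.69 and 3.35 times as high as Cyp2a22 in HFD, and 1.57, 0.372 and 0.860 times in LYC. This ratio does not depend on the scaling between libraries. The pair was chosen after its values were seen, so the ratio is a description.

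Cyp2a5, which hydroxylates coumarin and nicotine, had 59.9, 102 and 73.4 RPKM in HFD and 96.1, 114 and 139 RPKM in LYC. The deposited values overlapped, the scaled ones did not. Its log2 fold change was 0.87 (SE 0.24, limma adjusted p = 0.0516), so it was not called, while edgeR gave an adjusted p of 0.0289. The remaining Cyp2a gene, Cyp2a4, had 9 reads, all in HFD2. Cyp2a5 shares 75.1% of its windows, most with Cyp2a4.

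Cyp3a25 (chromosome 5, 145977194 to 146009618), a steroid hydroxylase, was found at 69.0, 98.0 and 62.6 RPKM in HFD and 22.5, 23.5 and 31.7 RPKM in LYC. No LYC library reached the HFD range. Its fitted change was -1.23 (SE 0.25, limma adjusted p = 0.0184), and it was called in all 6 fits that left out 1 library. Cyp3a59 had 24.4, 35.1 and 24.0 RPKM in HFD and 33.0, 46.7 and 42.5 RPKM in LYC, and the groups parted only after scaling. It had a log2 fold change of 0.82 (SE 0.23, limma adjusted p = 0.0558) and an edgeR adjusted p of 0.0461. Cyp3a25 was 2.82, 2.79 and 2.61 times as high as Cyp3a59 in HFD and 0.682, 0.504 and 0.745 times in LYC, so the order of the pair differed between the groups in each library. This pair too was chosen after its values were seen.

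**Figure D2:**
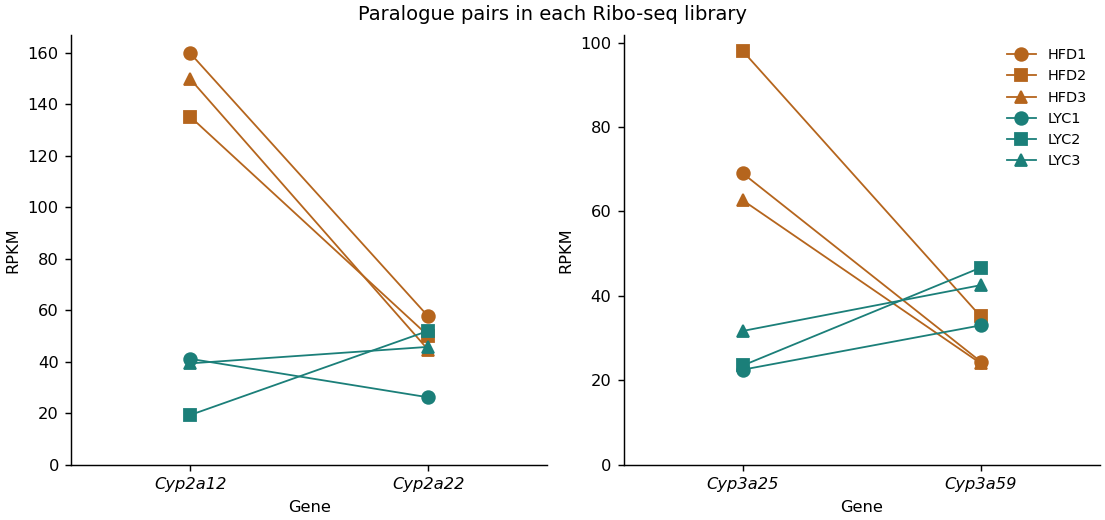
RPKM of Cyp2a12 and Cyp2a22 (left) and of Cyp3a25 and Cyp3a59 (right), with a line joining the values of each library, HFD in brown and LYC in green. The HFD lines fall steeply from the first gene to the second, whereas the LYC lines are flatter or rise, as the ratio of Cyp3a25 to Cyp3a59 of 2.61 to 2.82 in HFD and 0.504 to 0.745 in LYC shows.

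The promoters of the pairs, from 250 bases before to 50 after the start in RefSeq GRCm38.p6, are shown because the copies had different ratios in the groups. The pair on chromosome 5 is 95.7% identical over the window and the pair on chromosome 7 is 84.0% identical. Capitals mark TATAAA in the chromosome 7 pair (chr7:27028840-27029139, plus strand, and chr7:26939337-26939636, minus strand) and the nuclear receptor motif AGGTCA, or its reverse TGACCT, in the chromosome 5 pair (chr5:146009569-146009868, minus strand, and chr5:146079008-146079307, plus strand).
Cyp2a12: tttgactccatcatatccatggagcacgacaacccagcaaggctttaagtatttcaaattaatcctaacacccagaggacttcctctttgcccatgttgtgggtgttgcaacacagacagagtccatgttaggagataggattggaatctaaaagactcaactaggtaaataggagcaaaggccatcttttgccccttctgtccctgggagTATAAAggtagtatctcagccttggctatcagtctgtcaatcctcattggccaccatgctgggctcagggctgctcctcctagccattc
Cyp2a22: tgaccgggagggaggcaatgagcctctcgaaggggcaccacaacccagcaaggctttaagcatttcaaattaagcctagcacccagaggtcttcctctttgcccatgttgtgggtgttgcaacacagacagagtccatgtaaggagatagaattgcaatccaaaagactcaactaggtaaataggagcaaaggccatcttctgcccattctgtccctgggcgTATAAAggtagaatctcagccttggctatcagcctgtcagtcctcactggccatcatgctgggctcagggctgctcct
Cyp3a25: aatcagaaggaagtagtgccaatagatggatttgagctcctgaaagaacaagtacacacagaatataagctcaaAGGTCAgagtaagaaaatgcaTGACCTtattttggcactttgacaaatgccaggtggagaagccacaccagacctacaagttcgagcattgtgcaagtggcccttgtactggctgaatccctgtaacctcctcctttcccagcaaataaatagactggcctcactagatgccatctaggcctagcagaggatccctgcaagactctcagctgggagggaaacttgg
Cyp3a59: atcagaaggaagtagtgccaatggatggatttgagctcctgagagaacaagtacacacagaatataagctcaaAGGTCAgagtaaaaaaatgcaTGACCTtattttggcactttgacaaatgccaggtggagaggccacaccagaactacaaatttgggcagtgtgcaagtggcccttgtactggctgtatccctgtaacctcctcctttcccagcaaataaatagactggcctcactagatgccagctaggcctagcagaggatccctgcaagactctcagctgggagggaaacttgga

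RefSeq promoters were found for 62 of the 75 genes, 4 of the 7 called among them. TATAAA, read on both strands, was in 26 of the 62 (41.9%) and in 14.2% of 27025 promoters of the same length. AGGTCA was in 19 (30.6%, against 16.0%) and GCGTG, the core bound by AhR, in 13 (20.97%, against 32.5%). The D box TTATGTAA, the motif of PAR bZIP factors, was in 0 (against 0.955% of all promoters). A direct repeat of AGGTCA with 1 base between the copies (DR1) and the HNF1 motif were also in 0, against 0.0444% and 0.0074% of all promoters. The D box, DR1 and HNF1 motifs are so rare in all promoters that 0 among 62 is uninformative. Of the 4 called genes with a promoter, 2 held TATAAA, 1 held AGGTCA and 0 held GCGTG. These are matches of letters only.

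Cyp1a2 (chromosome 9, 57676937 to 57683703), which oxidises caffeine and aromatic amines and is a target of AhR, had 276, 172 and 222 RPKM in HFD and 102, 47.6 and 77.0 RPKM in LYC. All LYC libraries were lower than all HFD libraries. Its log2 fold change was -1.31 (SE 0.39, limma unadjusted p = 0.00926, adjusted p = 0.0642) and the call held in 2 of 6 fits with a library removed, without HFD2 and without LYC1. Over these fits it ran from -1.64 to -0.93. By edgeR the adjusted p was 0.0196. Cyp1a1, another target of AhR, was not tested, its reads numbering 80, 52 and 23 under HFD but 4, 0 and 3 under LYC. Its RPKM was 11.2, 4.50 and 10.5 in HFD and 3.87, 0 and 2.78 in LYC. Cyp1b1 had 10 reads in HFD and 1 in LYC. Footprints of Ahr itself, the receptor, were at 6.19, 13.4 and 6.00 RPKM in HFD and 11.3, 7.16 and 9.45 RPKM in LYC, with overlapping groups (log2 fold change 0.44, SE 0.37, limma adjusted p = 0.454).

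In the Cyp2 family 25 of 48 genes were tested, 3 were called lower (beside 6.5% of all genes), and 17 had a negative log2 fold change (beside 55% of all genes), with a median of -0.16. Without LYC2 the median of the family was 0.07, so its sign rested on that library. The 15 Cyp2c genes, all on chromosome 19, included many of the most read P450 genes, and 0 of the 9 tested were called. Their median log2 fold change was -0.04, with a range from -0.54 (Cyp2c38) to 0.46 (Cyp2c54). Cyp2c29, a pericentral enzyme that CAR induces, had 377, 362 and 267 RPKM in HFD and 240, 176 and 317 RPKM in LYC (log2 fold change -0.19, SE 0.30, limma adjusted p = 0.701). Cyp2c50 had 292, 262 and 233 RPKM in HFD and 309, 138 and 280 RPKM in LYC. Cyp2c67 had 180, 136 and 129 RPKM in HFD and 160, 84.8 and 117 RPKM in LYC. In all of these LYC2 was the lowest of the 6 libraries and the groups overlapped.

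Cyp2c38, with 9.21, 22.9 and 9.61 RPKM in HFD and 2.65, 12.3 and 9.30 RPKM in LYC, and Cyp2c54, with 24.6, 12.3 and 17.6 RPKM in HFD and 24.3, 10.9 and 30.1 RPKM in LYC, mark the ends of the subfamily. Both had overlapping groups and standard errors of 0.48 and 0.47 on the log2 scale, near the size of the change itself. With 1 library left out Cyp2c38 ran from -0.84 (without LYC2) to -0.035 (without LYC1), and Cyp2c54 from 0.11 (without HFD2) to 0.96 (without LYC2).

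The 9 Cyp2d genes lie together on chromosome 15, and 8 were tested, with a median of -0.37. Cyp2d26 had 374, 401 and 361 RPKM in HFD and 131, 121 and 232 RPKM in LYC, without overlap. The fitted change of -0.999 (SE 0.29, limma unadjusted p = 0.00795, adjusted p = 0.0587) fell just short of the fold limit, and Cyp2d26 was called in 6 of the other fits, among them that with total library size (-1.29) and that without LYC3 (-1.32). Cyp2d9, a steroid hydroxylase with higher levels in male mice, had 335, 218 and 241 RPKM in HFD and 465, 339 and 323 RPKM in LYC. Its groups overlapped as deposited and parted after scaling, with a log2 fold change of 0.80 (SE 0.32, limma adjusted p = 0.136). In HFD the mean of Cyp2d26 (379 RPKM) was above that of Cyp2d9 (265 RPKM), and in LYC it was below (161 and 376 RPKM). Cyp2d9 and Cyp2u1 form the list of genes with higher levels in males, and Cyp2u1 was called lower and Cyp2d9 was not called.

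Cyp2d11 had 405, 303 and 341 RPKM in HFD and 209, 226 and 237 RPKM in LYC, which parted as deposited and overlapped after scaling (log2 fold change -0.34, SE 0.25, limma adjusted p = 0.388). Cyp2d10 was at 236, 166 and 167 RPKM in HFD and 146, 189 and 136 RPKM in LYC, with a log2 fold change of 0.02 (SE 0.27). The called member of the subfamily, Cyp2d13, is annotated in RefSeq as a transcribed pseudogene (chromosome 15, 82636750 to 82642045). It had 16.5, 16.8 and 18.9 RPKM in HFD and 1.54, 3.91 and 8.85 RPKM in LYC, from 222 reads in HFD and 9 in LYC. Its log2 fold change was -1.65 (SE 0.47, limma unadjusted p = 0.00657, adjusted p = 0.0535). Of the 6 fits with a library removed, the one without LYC3 called it, while edgeR and DESeq2 did not. Cyp2d9, Cyp2d10 and Cyp2d11 share 53.8%, 60.2% and 60.3% of their windows with other genes and Cyp2d26 20.3%, and reads may be split between Cyp2d10 and Cyp2d11, which share 43.0% with each other.

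Cyp2f2 (chromosome 7, 27119909 to 27133660), which activates naphthalene and is found in periportal hepatocytes, had the second highest mean in HFD. It was at 571, 540 and 614 RPKM in HFD and 191, 291 and 299 RPKM in LYC, and the highest LYC library was well under the lowest HFD library. The log2 fold change was -0.88 (SE 0.24, limma unadjusted p = 0.00598, adjusted p = 0.0505), short of the fold limit, and edgeR gave an adjusted p of 0.0310. It passed the limit and was called without HFD2 (-1.05), without LYC3 (-1.02), with total library size (-1.17) and without a filter on low values (-1.01). Cyp2f2 shares no window with another gene, though the antisense gene Gm15883 overlaps its exons. Of the periportal genes outside the P450 families 6 were tested, Sds and Cps1 were called higher and 0 lower, beside 6.98% and 6.5% of all genes. The limma adjusted p was 0.0175 for Sds and 0.0558 for Cps1, whose log2 fold change was 1.07. Of the pericentral list 3 were tested and 0 called.

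Cyp2u1 (chromosome 3, 131288441 to 131303227), a fatty acid omega-hydroxylase and the sole P450 gene of these families on its chromosome, had 28.5, 40.1 and 34.4 RPKM in HFD and 7.61, 8.28 and 14.6 RPKM in LYC. Its groups were far apart, from 660 reads in HFD and 27 in LYC. The log2 fold change was -1.43 (SE 0.31, limma adjusted p = 0.0215), and it was called in all 6 fits that left out 1 library. Its exons overlap an antisense gene, 4930534D22Rik, and the counting is not stated to use strand. Among the other single-gene subfamilies, Cyp2r1, the vitamin D hydroxylase, was not tested, with 113 reads in HFD and 17 in LYC. The 2 Cyp2j genes tested, Cyp2j5 and Cyp2j6, had log2 fold changes of -0.02 and -0.04.

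None of the Cyp2b genes was tested. Cyp2b10, the usual target of CAR, had 1.95, 2.18 and 0.638 RPKM in HFD and 4.05, 0 and 5.17 RPKM in LYC, from 29 and 7 reads. Cyp2b9 had 16, 177 and 9 HFD reads with 0 in LYC, and HFD2 thus held 177 of its 202 reads. Cyp2b13 was alike, with 2, 64 and 4 HFD reads and 0 in LYC. They belong to a list of 6 genes with higher levels in female mice (Cyp2a4, Cyp2b9, Cyp2b13, Cyp2c69, Cyp3a16 and Cyp3a44). Of these, 4 had reads in HFD and 0 in LYC, and their summed RPKM was 4.97, 30.7 and 8.30 in the HFD libraries. Over all families 16 of the 69 genes with reads, 23.2%, were read in HFD alone and 0 in LYC alone. Among all genes with reads the share in HFD alone was 25.6%, near the share of the P450 genes. These 16 genes had a median of 11 HFD reads.

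Cyp3a11, the main PXR target of mouse liver, had 371, 345 and 330 RPKM in HFD and 193, 315 and 356 RPKM in LYC. LYC1 was the lowest library, LYC2 also lay under the HFD range and LYC3 was inside it, with a log2 fold change of -0.03 (SE 0.25, limma adjusted p = 0.948). The 5 tested Cyp3a genes had a median of -0.03, with Cyp3a25 and Cyp3a59 at the ends of their range. The sign of the median turned without HFD1 (0.024), LYC1 (0.15) or LYC2 (0.019), and without LYC3 it was -0.24. Of the 6 targets of CAR and PXR listed (Cyp2a5, Cyp2b10, Cyp2c29, Cyp2c37, Cyp2c55 and Cyp3a11), 4 were tested, 0 called, and the median was 0.18. The receptors were at low levels: Nr1i2, which encodes PXR, had 13.9, 19.0 and 13.8 RPKM in HFD and 10.0, 12.7 and 14.4 RPKM in LYC. Nr1i3, which encodes CAR, had 21.3, 41.6 and 16.5 RPKM in HFD and 17.4, 36.9 and 40.8 RPKM in LYC. Both overlapped between the groups.

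In the Cyp4 family 9 of 17 genes were tested, and the log2 fold change was negative in all 9, beside 55% of all genes, and also with TMM factors without small non-coding RNA, edgeR and DESeq2. Without LYC1 it was negative in 10 of 12 tested genes, without LYC2 or LYC3 in 11 of 12, and at a mean RPKM of at least 1 in 13 of 14. The median of the 9 was -0.58, and 2 were called lower, beside 6.5% of all genes. With 1 library left out the median ran from -1.04 (without LYC3, 12 genes) to -0.47 (without LYC1, 12 genes). Cyp4x1 (chromosome 4, 115106323 to 115134281), whose role in liver is little known, had 16.8, 15.5 and 16.5 RPKM in HFD and 3.18, 4.03 and 6.70 RPKM in LYC. The HFD libraries were nearly equal and all LYC libraries lay under them, from 510 reads in HFD and 21 in LYC. The fitted change was -1.41 (SE 0.33, limma adjusted p = 0.0287), and the call held in 4 of 6 fits with a library removed, not without HFD1 (log2 fold change -1.36) or HFD3 (-1.38). The antisense gene Cyp4x1os, which overlaps its exons, had 8 reads in HFD and 0 in LYC.

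Cyp4f13 (chromosome 17, 32924688 to 32947402), of a subfamily that hydroxylates leukotrienes and other eicosanoids, had 24.2, 22.4 and 23.8 RPKM in HFD and 11.9, 5.64 and 5.67 RPKM in LYC, from 316 and 15 reads. The fold change was -1.29 on the log2 scale (SE 0.39, limma unadjusted p = 0.00889, adjusted p = 0.0631). Of the fits with a library removed, the one without LYC1 called it, while edgeR and DESeq2 did not. Cyp4f15, at 36.5, 44.1 and 38.2 RPKM in HFD and 26.1, 51.2 and 19.3 RPKM in LYC, overlapped between the groups (log2 fold change -0.12, standard error 0.33). Cyp4f14 had 113, 84.1 and 110 RPKM in HFD and 35.6, 42.2 and 73.6 RPKM in LYC, with a log2 fold change of -0.78 (SE 0.33, limma adjusted p = 0.152), and was called in 1 of 6 fits with a library removed.

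The Cyp4a genes, targets of PPARα that hydroxylate fatty acids, varied widely within each group. Cyp4a14 had 51.0, 182 and 75.4 RPKM in HFD and 16.3, 81.2 and 86.6 RPKM in LYC. Cyp4a10 had 36.4, 69.9 and 40.8 RPKM in HFD and 15.8, 15.4 and 39.5 RPKM in LYC. Cyp4a32 had 73.4, 132 and 68.3 RPKM in HFD and 50.3, 42.0 and 100 RPKM in LYC. In all 3 genes HFD2 was the highest HFD library and LYC3 the highest LYC library, but LYC2 was close to LYC3 in Cyp4a14 and below LYC1 in the other genes. Cyp4a10 and Cyp4a32 share 54.4% of their windows, so reads may be split between them. The log2 fold changes were -0.57 (SE 0.59), -0.82 (0.39) and -0.26 (0.37), and 0 were called. Without LYC3 Cyp4a10 was at -1.28 and was called. Ppara itself had 35.1, 62.4 and 38.1 RPKM in HFD and 25.0, 42.8 and 26.9 RPKM in LYC, with a log2 fold change of -0.22 (SE 0.27, limma adjusted p = 0.625). HFD2 and LYC2 were its highest libraries.

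**Figure D3:**
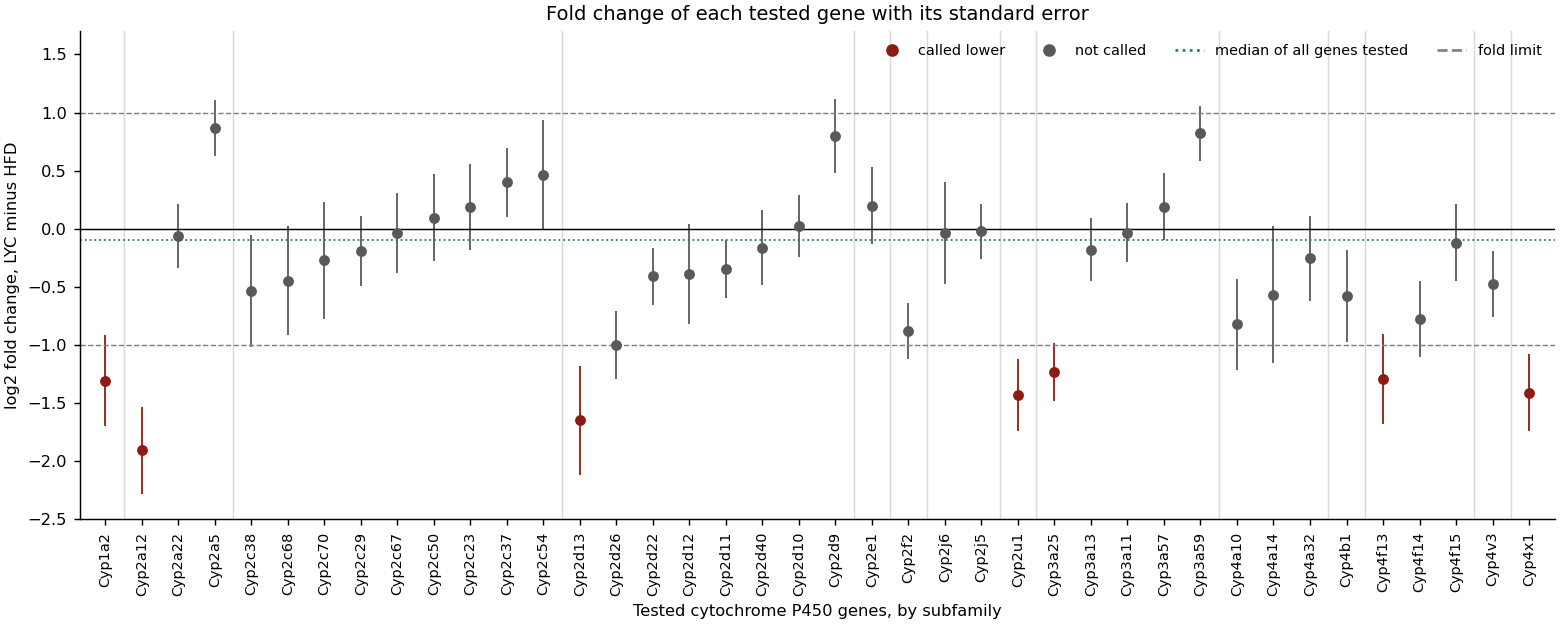
Log2 fold change (LYC minus HFD) of the 40 tested genes with its standard error, ordered by subfamily, with called genes in red, the fold limits dashed and the median of all genes tested (-0.10) dotted. The 7 called genes run from -1.91 (Cyp2a12) to -1.23 (Cyp3a25), and on the higher side Cyp2a5, Cyp3a59 and Cyp2d9 stay under the fold limit at 0.87, 0.82 and 0.80.

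Among the partners of the enzymes 6 electron donors were tested. Of these, 3 were called higher in LYC and 1 lower, beside 6.98% and 6.5% of all genes. Por, the oxidoreductase that passes electrons to microsomal P450 enzymes, had 29.9, 44.7 and 33.2 RPKM in HFD and 108, 116 and 154 RPKM in LYC. All LYC libraries were far above all HFD libraries, and the log2 fold change was 2.07 (SE 0.24, limma adjusted p = 0.00158). Cyb5a, the microsomal cytochrome b5, rose from 433, 552 and 432 RPKM in HFD to 1470, 1899 and 1314 RPKM in LYC, with no overlap and a fitted change of 2.00 (SE 0.23, limma adjusted p = 0.00158). Cyb5b, the cytochrome b5 of the mitochondrial outer membrane, fell from 122, 158 and 105 RPKM to 45.5, 42.7 and 49.7 RPKM (log2 fold change -1.16, SE 0.23, limma adjusted p = 0.0174). Fdx1, the ferredoxin of mitochondrial P450 enzymes, had 29.5, 26.0 and 26.8 RPKM in HFD and 60.4, 94.8 and 43.1 RPKM in LYC (log2 fold change 1.45, SE 0.31, limma adjusted p = 0.0211).

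Of 8 electron donors 6 were tested, with a median of 1.10 on the log2 scale. The 4 called donors and Alas1 were called in all 17 fits run, which include other scalings, edgeR, DESeq2 and each library left out. Alas1, the first and limiting enzyme of haem synthesis, had 125, 121 and 85.6 RPKM in HFD and 238, 296 and 219 RPKM in LYC, with no overlap and a log2 fold change of 1.48 (SE 0.24, limma adjusted p = 0.00764). It was the sole call among the 6 tested genes of haem synthesis (6.98% of all genes were called higher), whose median was 0.01. The haem breakdown genes (2 tested) and epoxide hydrolases (2 tested) had 0 calls.

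**Figure D4:**
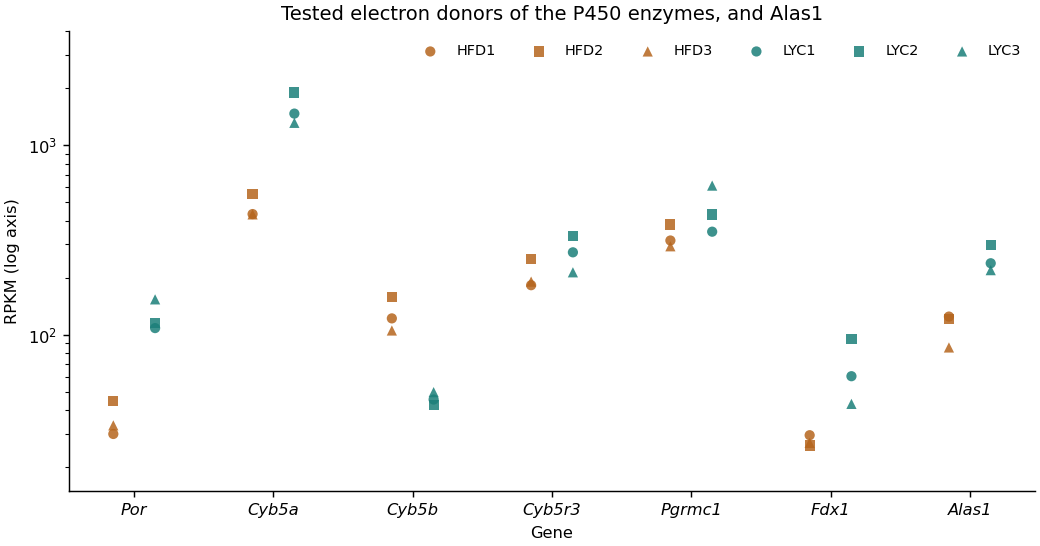
RPKM on a log axis of the 6 tested electron donors and of Alas1, with 1 point per library, HFD in brown and LYC in green. Por, Cyb5a, Fdx1 and Alas1 have all LYC points above all HFD points, and Cyb5b has all LYC points below them.

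Of 17 regulators of P450 genes 15 were tested, with 3 called higher and 0 lower, beside 6.98% and 6.5% of all genes, and a median of -0.36. The called regulators were Nr1h4, which encodes the bile acid receptor FXR, and Dbp and Tef, circadian factors of the PAR bZIP family that bind promoters of Cyp2 genes. Dbp had 1.09, 7.30 and 5.00 RPKM in HFD and 21.2, 51.7 and 31.8 RPKM in LYC (log2 fold change 3.10, SE 0.49, limma adjusted p = 0.00707). Nr1h4 had a log2 fold change of 1.30 (limma adjusted p = 0.0294), and Tef of 1.42 (limma adjusted p = 0.0511). Tef was called in 10 of 17 fits and Nr1h4 in 15. Hlf, the remaining factor of the PAR bZIP family, had 4.53, 9.82 and 6.14 RPKM in HFD and 0.448, 3.97 and 2.14 RPKM in LYC. Its groups did not overlap, and it was not called (log2 fold change -1.22, SE 0.46, limma adjusted p = 0.117, from 344 and 13 reads). Rxra (-0.58), Nr3c1 (-0.64) and Stat5b (-0.69) were also lower in LYC without overlap, as deposited and scaled, and were not called (limma adjusted p of 0.188, 0.202 and 0.197). Of all genes tested, 19.3% were lower without overlap on scaled values and 27.6% as deposited. In the other P450 families 18 genes were in the table and 5 were tested. Among these 1 was called lower and 0 higher, beside 6.5% and 6.98% of all genes. The called gene was Cyp8b1, a sterol hydroxylase of bile acid synthesis. It had 290, 226 and 163 RPKM in HFD and 53.3, 62.6 and 103 RPKM in LYC (log2 fold change -1.35, SE 0.32, limma adjusted p = 0.0291). Cyp8b1 was called in 14 of 17 fits, not without HFD1, LYC1 or LYC2.

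For any 1 gene an exact permutation test over the libraries can reach no p under 0.1 (two-sided, 3 against 3), the value found for each of the 7 called genes. The calls therefore rest on limma's estimate of the spread shared across genes. Cyp2a12, Cyp2u1 and Cyp3a25 were called whichever library was left out, and Cyp1a2, Cyp2d13 and Cyp4f13 in no more than 2 of the 6 such fits. The 7 calls became 3 without HFD1 or without HFD3 and 4 without LYC2. The 4 genes at an adjusted p below 0.05 (limma) became 0 without HFD1 or without HFD3, 1 without HFD2, 2 without LYC1 and 10 without LYC3.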

How the data were processed

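Ribo-seq values were deposited by the authors as RPKM for each gene and library. For trimming and filtering they named cutadapt and bowtie2, for alignment STAR (genome GRCm38/mm10) and for quantification FANSE2. Versions and filters are not given in the sources used here. The whole reads behind each RPKM value were recovered from the size of its steps, taking gene lengths from the authors' deposited RPKM and counts of the libraries labelled RNA-seq (11129 genes), from RefSeq (3823 genes) or fitted (797 genes). The length from that table gave whole reads for 71.9% to 72.4% of the values of a library, counting as whole a value within 0.02 reads, or within 2e-05 of its size where that is larger.

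Libraries labelled RNA-seq served for lengths alone: across genes they correlate with Ribo-seq libraries at r of up to 0.958, in HFD with another number (RNA-seq HFD1 with Ribo-seq HFD2). In LYC each Ribo-seq library correlated most with the RNA-seq library of its own number (r of 0.930, 0.928 and 0.932). The groups come from the titles, because lycopene is absent from the treatment field of the LYC group.

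limma 3.58.1 (trend, two-sided) was run in R 4.3.3 on log2(RPKM / TMM factor + 1) over the 5704 genes kept by filterByExpr of edgeR 4.0.16 on recovered reads. The pseudocount of 1 makes fold changes of low genes too small. Alternatives were DESeq2 1.42.0, edgeR, other scalings, filters and pseudocounts, a replicate block, removal of the trend on gene length, and each library left out. The fits were tested on simulated counts drawn with the same spread setting for every gene. That setting is simpler than these data, so error rates here are not known from it. Shared windows and coding sequences come from GENCODE M21, promoters from RefSeq. Tables and figures used Python 3.11.15, numpy 2.4.6, pandas 2.3.3 and matplotlib 3.10.9.

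The members and gene lists were chosen with earlier results of these data known. Genes named with values are those called, the 12 highest in HFD, the ends of each subfamily with 3 or more tested genes, and a set of known receptor targets; from the lists, called donors, haem genes and regulators, and the main receptors. Other genes named, such as Cyp2a22, Cyp2b9, Cyp2b13, Cyp4f14 and Cyp8b1, were chosen after their values were seen.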

Additional observations from a re-analysis of the deposited data

How the results depend on the processing

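The number of P450 genes tested changed with the filter and the libraries: 40 in the fit reported, 69 without a filter on low values, 51 at a mean RPKM of at least 1, 39 without HFD1 or without HFD3, and 45 without LYC1, LYC2 or LYC3. Of those tested, 0 were called higher in each of the 17 fits and at p below 0.001. The 7 called lower became 11 without a filter on low values, 2 at an unadjusted p below 0.001, and 3 to 10 with 1 library left out (3 without HFD1 or without HFD3, 4 without LYC2). The 4 genes with an adjusted p below 0.05 became 9 with total library size, 7 with a pseudocount of 5, 7 without a filter on low values, 9 with edgeR, 9 with DESeq2, 7 with the gene length trend removed, and 0 to 10 with 1 library left out. The replicate block gave 7 genes at an adjusted p below 0.05 and 7 called lower; libraries of the same number deviated together with r of 0.10, 0.03 and -0.00074 across genes, so the numbers are not treated as pairs. The median over the genes tested in each fit stayed negative on the log2 scale, from -0.55 with total library size, where the median of all genes was -0.36, to -0.16 with DESeq2, and from -0.46 to -0.17 with 1 library left out. The ratio of the summed RPKM was 0.965 with all libraries and RPKM divided by the TMM factors. On RPKM as deposited it was 0.711 to 0.859 with 1 library left out, so the 2 are not on the same scale.

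Among the genes followed one by one through the fits, sign changes fell on genes that were not called. Some genes named with values, such as Cyp2a22, Cyp2j5 and Cyp2j6, were not followed in this way. With total library size Cyp2c50 was at -0.19, Cyp2d10 at -0.27 and Cyp2e1 at -0.092. Without a filter on low values Cyp2c50 was at -0.035 and Cyp2d10 at -0.11, and at a mean RPKM of at least 1 Cyp2d10 was at -0.061. With edgeR Cyp2c67 was at 0.020 and Cyp2d10 at -0.0083, with DESeq2 Cyp2c67 at 0.025 and Cyp2d10 at -0.0012, and with the gene length trend removed Cyp2d10 was at -0.058. With 1 library left out the ranges were -0.42 to 0.11 for Cyp2c29, -0.20 to 0.54 for Cyp2c50, -0.35 to 0.27 for Cyp2c67, -0.19 to 0.22 for Cyp2d10, -0.0074 to 0.54 for Cyp2e1, -0.24 to 0.15 for Cyp3a11, -1.001 to 0.12 for Cyp4a14, -0.65 to 0.077 for Cyp4a32 and -0.42 to 0.15 for Cyp4f15. The cause was not tested. Depth limits the LYC values: the 7 called genes had 9 to 164 LYC reads each.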
